A study of Drosophila melanogaster with 12 samples.

Results

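The 67 genes described here are the UDP-glycosyltransferases (33 Ugt genes) and the glutathione S-transferases of the delta, epsilon, omega, sigma, theta and zeta classes (34 Gst genes) of Drosophila melanogaster. They were chosen by symbol alone, as every probe set that carried 1 gene symbol starting with Ugt and a number, or with Gst, one of the letters D, E, O, S, T or Z and a number. A probe set is the group of array probes that report 1 transcript. The rule found 71 probe sets for these genes among 13966 tested, in a series that names 10845 genes. Ugt35B1, GstO2 and Ugt305A1 had more than 1 probe set, and each gene was then described by the probe set of highest mean signal. RefSeq lists 35 Ugt and 35 Gst genes under the same rule, and GstT1, Ugt35D1 and Ugt50B3 were not analysed here.

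Ugt enzymes transfer a sugar, in insects mostly glucose, from a UDP-sugar onto small lipophilic compounds, and glutathione S-transferases join glutathione to electrophilic compounds or use it to reduce peroxides. Both reactions make hormones, pigments, plant toxins, insecticides and odorants more soluble, so that they can be exported. The delta and epsilon classes have expanded in insects and include enzymes known from insecticide resistance, while the theta and zeta classes are shared with vertebrates. In the head such enzymes are known from the fat body, from glia at the blood-brain barrier and from the support cells of the antenna.

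Heads came from y w flies, mutant for yellow, a gene of cuticle pigment, and for white, a transporter gene of eye pigment, and both groups share this genotype. The flies had lived for 3 days under 12 h of light and 12 h of darkness. They were then frozen every 4 h through another such day (LD) and through the day in constant darkness that followed it (DD), at hours 2, 6, 10, 14, 18 and 22 from lights-on or from the time lights would have come on. Each of the 12 samples was a pool of about 100 to 200 sieved heads on 1 Affymetrix array, and an array is named here by its regime and hour, as in LD 10. RNA was prepared with either of a pair of reagents, and the sources used here do not say which array had which, nor the sex or age of the flies.

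All levels are log2 values, so a difference of 1 is a doubling of signal, and the median level lay between 5.37 and 5.40 on every array. Each hour had 1 array per regime, so the hours of one day served as replicates of the other where both days were fitted together. The DD day always followed the LD day, so that regime and order of the days cannot be told apart. Within whole heads, fewer cells of a type and less RNA per cell cannot be told apart either. The photoreceptor genes trp, Arr1 and Arr2 had mean levels of 9.78, 11.2 and 12.3, as a head sample should show. The 5′ minus 3′ signal of 3 control transcripts, a measure of RNA completeness, was lowest on LD 2 (-2.02), DD 14 (-1.89), DD 18 (-2.51) and DD 22 (-2.45), against -1.76 to -1.51 on the other arrays. Mean signal over the 12 arrays lay above the median of all probe sets for 22 of the 34 Gst genes and for 9 of the 33 Ugt genes. Many family members lie next to each other in the genome as close copies, and whether their probes also bind a neighbour's RNA was not tested.

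The first question was whether the families follow the time of day. A 24 h curve was fitted to each probe set over both days, and its amplitude is the rise from the mean to the peak in log2 units, given with its standard error. No Ugt or Gst gene passed an adjusted p of 0.05 in limma's F-test, where 3 of 13966 probe sets did (0.0215%). At an unadjusted p under 0.05, 3 of 33 Ugt genes and 3 of 34 Gst genes were counted, beside 4.68% of all probe sets. The Ugt genes were Ugt35B1, Ugt35E1 and Ugt37A2, and the Gst genes were GstZ2, GstD10 and GstZ1. Median amplitudes were 0.08 for Ugt genes, 0.12 for Gst genes and 0.07 for all probe sets.

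Fitted peaks were counted by time of day, with no test between the families. For 20 of 34 Gst genes (58.8%) the peak fell in the first 6 h after lights-on, as it did for 12 of 33 Ugt genes (36.4%) and for 17.1% of all probe sets. Without LD 6 these counts were 14 of 34 and 11 of 33. Between hour 21 and hour 9 lay the peaks of 29 of 34 Gst genes, 19 of 33 Ugt genes and 47.5% of all probe sets. GstE13 was the single Gst gene whose peak lay between hours 12 and 18. All of these are from curves over both days. With a curve for each day, 16 of 34 Gst genes and 7 of 33 Ugt genes peaked in the first 6 h in LD. Of all probe sets 28.4% did. In DD 16 of 34 Gst and 18 of 33 Ugt genes did, beside 20.3% of all probe sets. The epsilon class (GstE) counted 4 of 14 genes in LD and 7 in DD, and the delta class (GstD) 7 of 11 and 5. Most arrays of low 5′ signal were in DD, and the part of that signal in the DD counts was not tested. These are counts of fitted peaks, none of whose curves passed the adjusted test, and genes within a family are not independent.

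**Figure D1:**
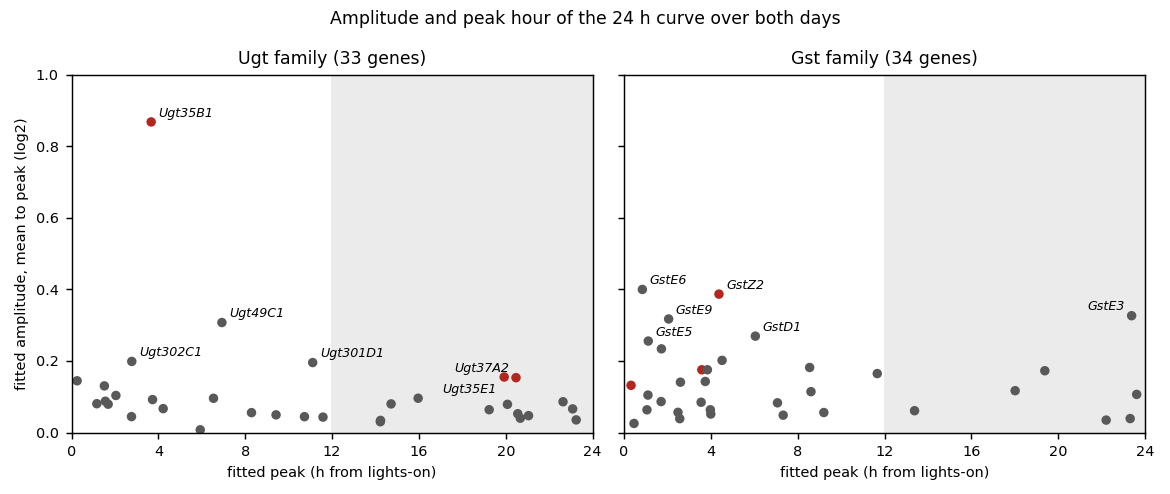
Amplitude (log2, mean to peak) against peak hour of the fitted 24 h curve over both days, 1 point per gene, with Ugt genes on the left and Gst genes on the right. The shaded part covers hours 12 to 24, and red points have an unadjusted p under 0.05. Ugt35B1 stands at 0.87, far above the other Ugt genes, and the Gst points crowd in the first hours after lights-on.

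Ugt35B1, whose transcript has been reported in the antenna, had the largest amplitude of the 67 genes. It measured 8.01, 8.49, 6.48, 7.08, 6.91 and 7.50 over hours 2 to 22 in LD, and 8.98, 8.72, 8.21, 7.13, 7.10 and 7.86 in DD. On both days the values at hours 2 and 6 were the highest, those at hours 14 and 18 were low, and in LD the lowest was at hour 10. The fitted amplitude over both days was 0.87 ± 0.15 with a peak at hour 3.67, a 3.33-fold range from trough to peak (unadjusted p = 3.41e-04, adjusted p = 0.446). Its curve reached 0.76 ± 0.20 with a peak at hour 2.82 in LD and 1.01 ± 0.20 with a peak at hour 4.31 in DD (adjusted p = 0.691 and 0.234), and the difference of the curves did not pass (0.42 ± 0.29, adjusted p = 0.811, and 0.78 without LD 6). Without LD 10 the amplitude over both days was 0.88 and the adjusted p 0.00724. Without the 4 arrays of low 5′ signal, among them DD 14 and DD 18, the unadjusted p over both days was 0.0285. For the DD curve, then fitted to 3 arrays, it was 0.465.

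Ugt35B1 was also higher in DD than in LD at 6 of 6 hours. Its mean level was 7.41 ± 0.74 in LD and 8.0 ± 0.79 in DD (SD over 6 hours each), a difference of 0.59 ± 0.21 that did not pass after adjustment (adjusted p = 0.584). Without LD 10 that difference was 0.38. The dimmer of its probe sets lay between 5.62 and 6.23 in LD and between 5.77 and 6.24 in DD, with a fitted amplitude of 0.12 peaking at hour 23.8, so the probe sets of this gene disagree.

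Ugt35B1 lies in a run of 6 Ugt genes with no other protein-coding gene between them. Of its neighbours, Ugt35E1 had an amplitude of 0.16 ± 0.05 with a peak at hour 19.9 (unadjusted p = 0.0182, adjusted p = 0.967). It measured 2.86, 2.84, 2.89, 2.98, 3.28 and 3.24 in LD and 2.96, 2.99, 2.85, 2.93, 3.02 and 3.12 in DD, so its high values came at hours 18 and 22. In LD alone its curve had an amplitude of 0.23 ± 0.06 (unadjusted p = 0.00843). The other members of the run, Ugt35A1, Ugt35E2, Ugt304A1 and Ugt303A1, had amplitudes between 0.04 and 0.09.

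Antennal genes moved on some of the same arrays. The odorant-binding protein gene Obp83b measured 6.30, 8.61, 6.06, 6.30, 7.77 and 6.74 in LD and 7.65, 8.17, 7.15, 6.56, 6.56 and 7.44 in DD, with its highest value on LD 6 and its lowest on LD 10, as for Ugt35B1 in LD. On LD 18 the genes parted, with Obp83b at 7.77 and Ugt35B1 at 6.91. All 4 measured antenna markers had their highest LD value at hour 6, as Ugt35B1 did. The markers Obp19a and lush measured 6.53 and 4.88 there and had their lowest LD values at hours 2 and 14. The mean of the 4 measured of 5 antenna markers ranged from 5.07 to 6.30 in LD and from 5.12 to 5.84 in DD, while the co-receptor gene Orco, also on that list, stayed between 4.89 and 5.17 throughout. In LD that mean was lowest on LD 2, where Ugt35B1 measured 8.01. Of these 4 markers, 0 had an unadjusted p under 0.05 in any of the 5 comparisons. Their part in the values of Ugt35B1 was not tested.

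Ugt36E1, studied in olfactory neurons of the antenna, was the member that changed its mean level between the days. It measured 4.75, 4.64, 4.72, 4.80, 4.66 and 4.68 in LD and 5.26, 5.29, 5.35, 5.02, 4.93 and 5.11 in DD. Every DD value exceeded every LD value, a separation of the regimes seen in 0.558% of all probe sets and in no other member's probe set. The mean was 4.71 ± 0.06 in LD and 5.16 ± 0.17 in DD (SD over 6 hours each), and the fitted difference of 0.45 ± 0.07, or 1.37-fold, passed the test (adjusted p = 0.0251). That call was lost when hour of day was a block (adjusted p = 0.154) and when any 1 array other than LD 14 or DD 14 was left out, where the difference was 0.41 to 0.48 and the adjusted p 0.0505 to 0.109.

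In DD the first 3 hours of Ugt36E1 were higher than the last 3, with a fitted amplitude of 0.20 ± 0.06 and a peak at hour 6.01 (unadjusted p = 0.0179). In LD the amplitude was 0.03 ± 0.06, and the difference of the curves had an adjusted p of 0.555. Its neighbours did not pass the test of the level. Ugt36F1 measured 3.89, 3.76, 3.72, 3.76, 3.87 and 3.78 in LD and 4.32, 3.93, 4.00, 3.64, 3.92 and 3.96 in DD, which overlap, with a difference of 0.16 ± 0.08 (adjusted p = 0.759). For Ugt36D1 the difference was -0.07 ± 0.09, and its LD curve peaked at hour 14.6 while its DD curve peaked at hour 2.83 (difference of the curves 0.29 ± 0.10, unadjusted p = 0.0427, adjusted p = 0.484, and 0.19 with an unadjusted p of 0.185 without DD 14). Ugt36A1, elsewhere on 2L, was lower in DD by a difference of -0.12 ± 0.07 (adjusted p = 0.789).

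**Figure D2:**
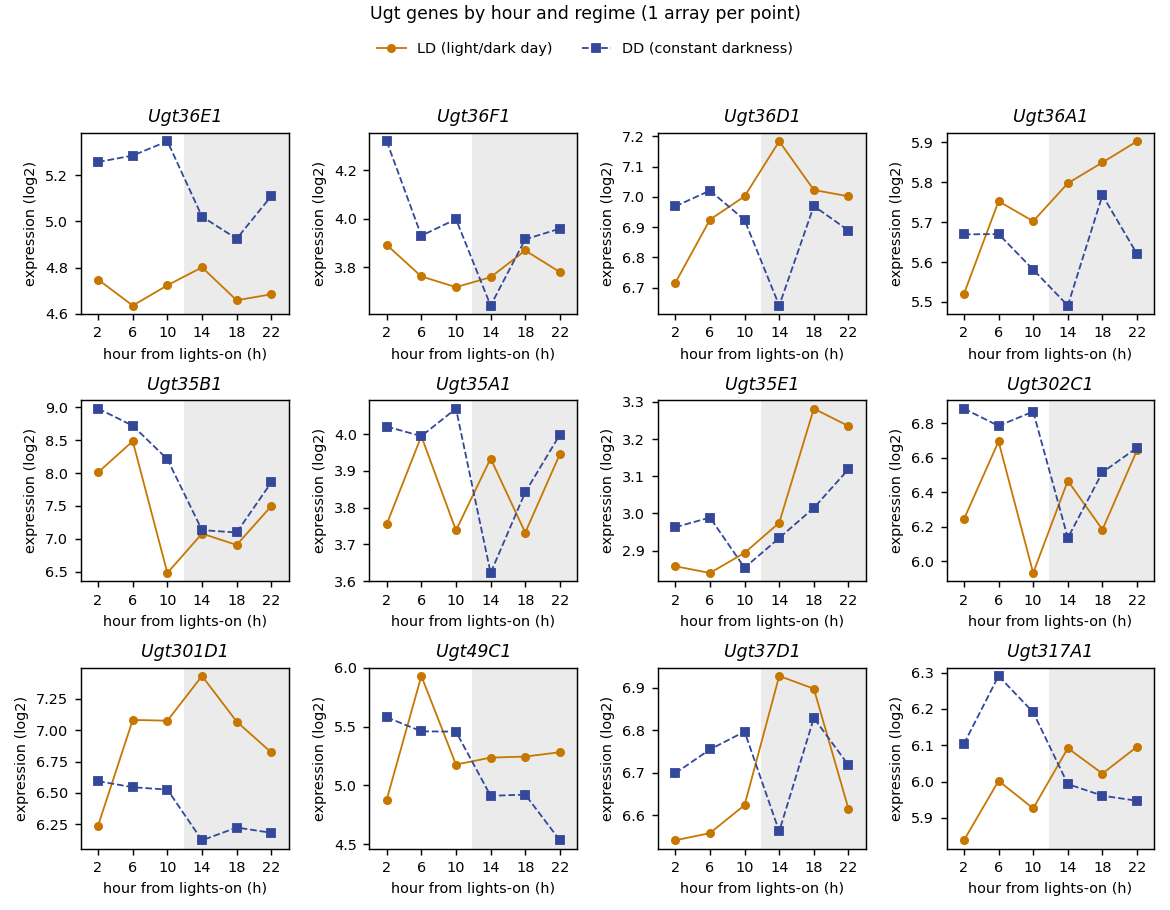
Expression (log2) of 12 Ugt genes by hour from lights-on, 1 array per point, in LD (orange circles) and DD (blue squares), each panel with its own scale. Shading marks hours 12 to 24, which were dark in LD, while DD was dark throughout. Ugt36E1 is higher in DD at every hour, Ugt301D1 is lower in DD at all hours but the first, and Ugt35B1 is high at hours 2 and 6 on both days.

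Ugt301D1 had the largest decrease in point estimate. In LD its levels were 6.24, 7.08, 7.08, 7.43, 7.07 and 6.82, and in DD they were 6.59, 6.55, 6.53, 6.12, 6.23 and 6.18. LD 2 lay among the DD values, and the other LD values lay above all of them. The 4 arrays of low 5′ signal, LD 2, DD 14, DD 18 and DD 22, held its lowest values, and the part of that signal was not tested. The difference of means was -0.59 ± 0.16, or 0.666 of the LD level (unadjusted p = 0.00345, adjusted p = 0.474), and without LD 2 it was -0.73 and passed (adjusted p = 0.0397). The LD curve had an amplitude of 0.44 ± 0.10 with a peak at hour 13.3, and the DD curve 0.25 ± 0.10 with a peak at hour 5.43, and without LD 2 the LD amplitude was 0.26. Their difference, 0.60 ± 0.15, had an unadjusted p of 0.00792 and an adjusted p of 0.329. Without the 4 arrays of low 5′ signal the unadjusted p was 0.228 for this difference and 0.104 for the LD curve.

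Other Ugt genes with larger curves did not pass. Ugt49C1 measured 4.88, 5.93, 5.18, 5.24, 5.25 and 5.28 in LD and 5.58, 5.46, 5.46, 4.91, 4.92 and 4.53 in DD, high on LD 6 and in the first hours of DD (amplitude 0.31 ± 0.12, unadjusted p = 0.0739). Its lowest values came on the 4 arrays of low 5′ signal. Ugt302C1 had an amplitude of 0.20 ± 0.10 with a peak at hour 2.77, and its level was 0.28 ± 0.14 higher in DD, at 5 of 6 hours (unadjusted p = 0.0693). Its LD range of 5.93 to 6.70 and its DD range of 6.14 to 6.89 overlapped. Ugt37A2 had an amplitude of 0.15 ± 0.05 with a peak at hour 20.5 (unadjusted p = 0.0217), from values between 2.67 and 3.14.

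When each day had its own curve, no member passed an adjusted p of 0.05. In LD, 7 of 13966 probe sets did (0.0501%), and in DD and for the difference of the curves 0 did (0.0% each). Unadjusted p-values under 0.05 in LD were found for 5 Ugt and 3 Gst genes beside 5.66% of all probe sets, in DD for 6 Ugt and 3 Gst genes beside 11.5%, and for the difference for 3 Ugt and 2 Gst genes beside 9.96%. The LD count holds Ugt35B1, Ugt35E1 and Ugt301D1, described above, Ugt37D1 (amplitude 0.21 ± 0.06, peak at hour 15.8) and Ugt303B3 (0.16 ± 0.05, peak at hour 21.6), with GstE14, GstE3 and GstD10. To the DD count belong Ugt35B1, Ugt36E1, Ugt36F1 (0.22 ± 0.07, peak at hour 2.27, but 0.13 without DD 2), Ugt37A2, Ugt49B2 (0.18 ± 0.05, peak at hour 2.83) and Ugt317A1 (0.17 ± 0.06, peak at hour 6.85), with GstZ2, GstT4 and GstD4. Ugt301D1, Ugt36D1, Ugt317A1, GstE14 and GstT4 make up the count for the difference.

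Single arrays weighed on these counts. Without LD 2 the LD count of Gst genes was 12 in place of 3, with 876 of all probe sets in place of 790. Without LD 6 it was 9, with 1738 of all probe sets, and the difference of the curves then counted 7 Ugt and 12 Gst genes, with 2584 of all probe sets in place of 1391. With each array left out in turn, the unadjusted counts of Ugt and Gst genes ranged from 1 to 5 and 2 to 6 over both days, from 2 to 5 and 1 to 12 in LD, and from 2 to 8 and 2 to 6 in DD. For the difference of the curves they ranged from 1 to 7 and 0 to 12, and for the mean level from 3 to 5 and 1 to 5. Over all 13966 probe sets the counts ranged from 404 to 1081 over both days, 386 to 1738 in LD and 1008 to 2269 in DD. They ranged from 966 to 2584 for the difference and from 714 to 1410 for the mean level.

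Gst genes tended to stand high or low on the same arrays. Measured from each gene's own mean over the 12 arrays, 27 of 34 were above it on LD 6 (mean deviation 0.21) and 31 of 34 on DD 2 (0.16), while 11 of 34 were above it on LD 10 (-0.23), 7 of 34 on LD 14 (-0.14) and 4 of 34 on DD 14 (-0.16). Of all 13966 probe sets, 5905 were above their mean on LD 6, 6931 on DD 2, 8205 on LD 10, 6648 on LD 14 and 6690 on DD 14. LD 6 was the highest array of 12 of 34 Gst genes (35.3%, against 10.1% of all probe sets), and LD 10 the lowest array of 10 of 34 (29.4%, against 7.57%). Ugt genes were more evenly spread, with 16 of 33 above their mean on LD 6, 15 on LD 10 and 8 on DD 14. DD 14, 1 of the 4 arrays of low 5′ signal, was low for both families, whereas LD 6 and LD 10 were not among those 4.

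**Figure D3:**
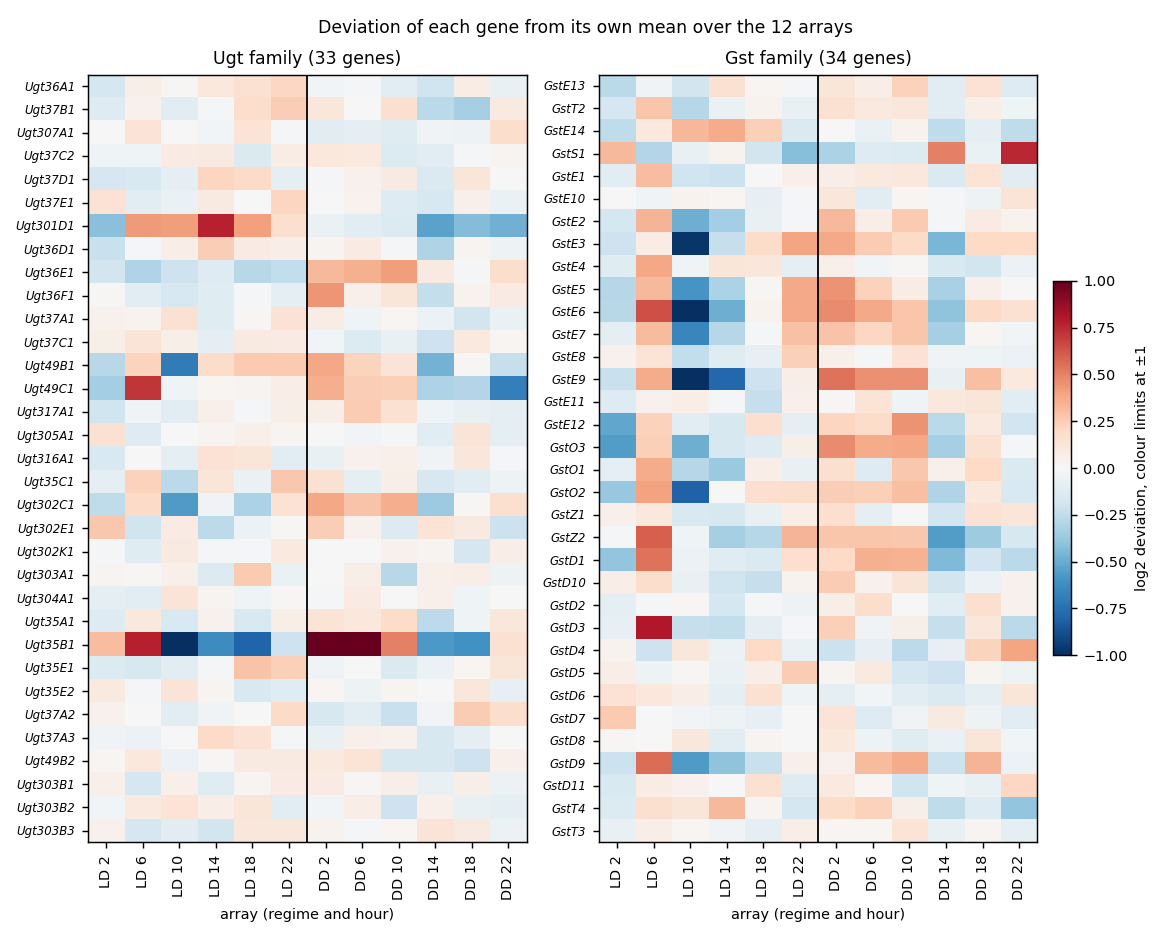
Deviation of each gene from its own mean over the 12 arrays (log2, colour limits at -1 and 1), with genes in rows, ordered by chromosome and by runs of neighbours, and arrays in columns, LD before DD. The block of epsilon class genes from GstE1 to GstE9 is blue on LD 10, with GstE4 near 0, and mostly red on LD 6 and DD 2, and Ugt36E1 changes from blue in LD to red in most of DD.

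On LD 10 the 14 GstE genes had a mean deviation of -0.39, against -0.05 for the 11 GstD genes, whereas on LD 14 and DD 14 the classes were closer, at -0.17 and -0.18 for GstE and -0.14 and -0.15 for GstD. Of the 14 GstE genes, 10 lie side by side on 2R with no other protein-coding gene between them, and in this run 9 were above their mean on LD 6 and 10 on DD 2 and on DD 10, but 1 on LD 10 and 0 on DD 14. The mean deviation of the run was 0.29 on LD 6, -0.55 on LD 10, -0.27 on LD 14 and 0.27 on DD 2. GstE10 is the gene of the run that was above its mean on LD 10, and GstE4 deviated by less than 0.1 there.

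GstE6 measured 7.02, 7.94, 5.94, 6.81, 7.33 and 7.67 in LD and 7.77, 7.67, 7.57, 6.89, 7.49 and 7.45 in DD. Its LD 6 and LD 10 values, taken 4 h apart, were the extremes of the 12 arrays. GstE3 measured 7.57, 7.85, 6.81, 7.55, 7.96 and 8.17 in LD and 8.15, 8.03, 7.97, 7.32, 7.98 and 7.97 in DD. Both genes were lowest on LD 10 in LD and on DD 14 in DD, each read from 1 array, and DD 14 is among the 4 arrays of low 5′ signal. The difference of the curves did not pass for GstE3 (adjusted p = 0.693) or GstE6 (adjusted p = 0.857). Fitted curves over both days had an amplitude of 0.40 ± 0.18 with a peak at hour 0.85 for GstE6 (unadjusted p = 0.122) and of 0.33 ± 0.12 with a peak at hour 23.4 for GstE3 (unadjusted p = 0.0626). In LD alone GstE3 reached 0.48 ± 0.16 with a peak at hour 21.8 (unadjusted p = 0.0396), and without LD 10 it reached 0.23 (unadjusted p = 0.418). GstE5 and GstE7 showed the same low point, at 4.999 and 4.06 on LD 10 against 5.28 to 5.97 and 4.42 to 5.03 on the other LD arrays.

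GstE9 and GstE2 were higher in DD in point estimate. GstE9 measured 8.58, 9.18, 7.81, 8.02, 8.60 and 8.87 in LD and 9.35, 9.26, 9.26, 8.73, 9.11 and 8.90 in DD, so DD was the higher at 6 of 6 hours, although the ranges overlapped. The difference was 0.59 ± 0.18, or 1.51-fold (unadjusted p = 0.00671, adjusted p = 0.524), and without LD 10 it was 0.46. For GstE2 the LD range was 5.07 to 5.89 and the DD range 5.53 to 5.88, with a difference of 0.25 ± 0.11 (unadjusted p = 0.0486, adjusted p = 0.731), and DD was the higher at 5 of 6 hours. The unadjusted p of this difference was 0.121 without LD 10 and 0.27 without the 4 arrays of low 5′ signal.

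GstE14, known as noppera-bo and required for ecdysteroid synthesis, stands apart from the other epsilon class genes on the chromosome. Its levels in LD were 6.69, 7.04, 7.27, 7.31, 7.18 and 6.80, and in DD 6.94, 6.87, 6.98, 6.69, 6.85 and 6.69. The LD values were lowest at hours 2 and 22 and highest at hour 14, while the DD values spanned 6.69 to 6.98 with no such order, and on LD 10 this gene was near its highest while GstE3, GstE6 and GstE9 were at their lowest. The LD amplitude was 0.32 ± 0.06 with a peak at hour 12.8 (unadjusted p = 0.00189, adjusted p = 0.480), the DD amplitude 0.10 ± 0.06, and the difference of the curves 0.35 ± 0.09 (unadjusted p = 0.0110, adjusted p = 0.349). Its mean level was lower in DD by a difference of -0.21 ± 0.09 (unadjusted p = 0.0452, adjusted p = 0.722). The unadjusted p of the level was 0.108 without DD 14 and 0.28 without the 4 arrays of low 5′ signal.

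**Figure D4:**
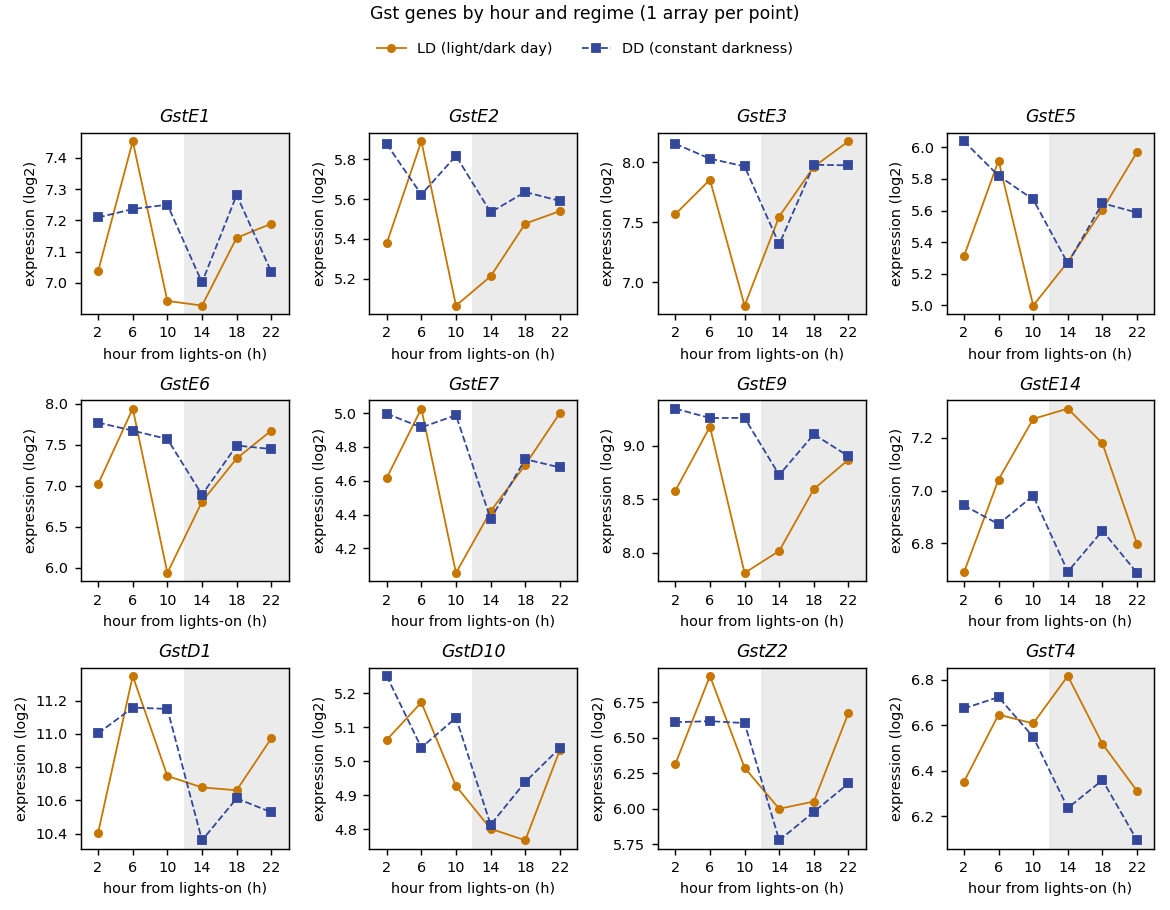
Expression (log2) of 12 Gst genes by hour from lights-on, 1 array per point, in LD (orange circles) and DD (blue squares), each panel with its own scale. Shading marks hours 12 to 24, which were dark in LD, while DD was dark throughout. GstE3, GstE5, GstE6, GstE7 and GstE9 have their lowest LD value at hour 10, while GstE14 is near its highest there.

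Zeta class enzymes act in tyrosine breakdown, and the neighbouring genes GstZ1 and GstZ2 were both among the 3 Gst genes counted for the rhythm. GstZ2 measured 6.31, 6.93, 6.29, 6.0, 6.05 and 6.67 in LD and 6.61, 6.62, 6.603, 5.78, 5.98 and 6.18 in DD. Hours 14 and 18 were the lowest on both days, and DD 14 and DD 18 are among the 4 arrays of low 5′ signal. The DD curve had an amplitude of 0.44 (unadjusted p = 0.0209), and of 0.02 without those 4 arrays, which left 3 in DD. The amplitude over both days was 0.39 ± 0.09 with a peak at hour 4.38, or 1.71-fold from trough to peak (unadjusted p = 0.00307, adjusted p = 0.820), and it ranged from 0.34 to 0.47 when each array was left out in turn. GstZ1 had an amplitude of 0.13 ± 0.04 with a peak at hour 0.33 (unadjusted p = 0.0325), from values between 6.14 and 6.51.

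The median amplitude of the 11 delta class genes over both days was 0.11, beside 0.12 for all 34 Gst genes. GstD10 measured 5.06, 5.17, 4.93, 4.80, 4.77 and 5.03 in LD and 5.25, 5.04, 5.13, 4.81, 4.94 and 5.04 in DD, with hours 14 and 18 the lowest on both days. Its amplitude was 0.18 ± 0.04 with a peak at hour 3.59 (unadjusted p = 0.00362, adjusted p = 0.870). Without the 4 arrays of low 5′ signal, among them DD 14 and DD 18, the unadjusted p was 0.0695. GstD1, an abundant enzyme known for breaking down DDT, measured 10.41, 11.35, 10.75, 10.68, 10.66 and 10.97 in LD and 11.00, 11.16, 11.15, 10.36, 10.61 and 10.53 in DD. Its LD 2 value lay below the other LD values and its DD 2 value among the 3 high ones of DD. The 4 arrays of low 5′ signal held the lowest values of this gene, and the part of that signal was not tested. The amplitude was 0.27 ± 0.10 with a peak at hour 6.05 (unadjusted p = 0.0749), and the means of the days differed by 0.00 ± 0.15.

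On LD 14, 0 of 11 GstD genes were above their own mean, and on DD 14, 1 was. GstD4 had a DD amplitude of 0.28 ± 0.09 with a peak at hour 20.2 (unadjusted p = 0.0402), and its highest levels, 4.55 and 4.71, came on DD 18 and DD 22, which are among the 4 arrays of low 5′ signal. With that signal as a covariate, the peak of GstD4 in DD moved by over 6 h.

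Theta, omega and sigma class genes showed no call. GstT4 measured 6.35, 6.65, 6.61, 6.82, 6.52 and 6.31 in LD and 6.67, 6.72, 6.55, 6.24, 6.36 and 6.09 in DD, highest at hour 14 on the first day and at hour 6 on the second. Its curves differed by 0.33 ± 0.11 (unadjusted p = 0.0475, adjusted p = 0.494). GstO3, whose class includes an enzyme of eye pigment synthesis, was 0.34 ± 0.16 higher in DD (unadjusted p = 0.0560), with LD values of 7.54 to 8.33 and DD values of 7.76 to 8.56. The 3 GstO genes were all higher in DD in point estimate, by 0.13 to 0.34. GstS1, abundant in flight muscle, measured 9.17 on DD 14 and 9.41 on DD 22, where the rest of DD ranged from 8.34 to 8.59, and 8.99 on LD 2, so that 3 of the 4 arrays of low 5′ signal held its highest values.

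The last comparison was of the mean level between the days. Of 13966 probe sets 21 passed (0.15%), and of the 67 genes Ugt36E1 did. At an unadjusted p under 0.05, 3 Ugt and 3 Gst genes were counted beside 6.82% of all probe sets. Ugt36E1, Ugt35B1, GstE9 and GstE2 were the higher ones (2.79% of all probe sets), and Ugt301D1 and GstE14 the lower ones (4.02%).

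By sign alone, 23 of 34 Gst genes were higher in DD and 10 lower, with a median difference of 0.06, against 48.1% of all probe sets higher and a median of -0.0045. With 1 array left out at a time, 22 to 25 Gst genes were higher, and the median lay between 0.041 without LD 10 and 0.098 without LD 6. Of the 14 GstE genes 12 were higher, with a median of 0.13, which was 0.07 without LD 10 and 0.05 without LD 2. In the run of 10 GstE genes 9 were higher, with a median of 0.15, which was 0.06 without either of these arrays and 0.09 without DD 10. GstE4 was the lower one of the run, by a difference of -0.12 ± 0.08, and GstD6 differed by -0.11 ± 0.06. Among Ugt genes 14 were higher and 19 lower, with a median of -0.03 that was -0.012 without DD 18 and -0.013 without LD 22, but with the control transcripts' 5′ signal as a covariate 19 were higher and 14 lower, and without the 4 arrays of low 5′ signal 18 were higher and 15 lower. Of the 8 Ugt37 genes 7 were lower in DD, and 5 were with that covariate.

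**Figure D5:**
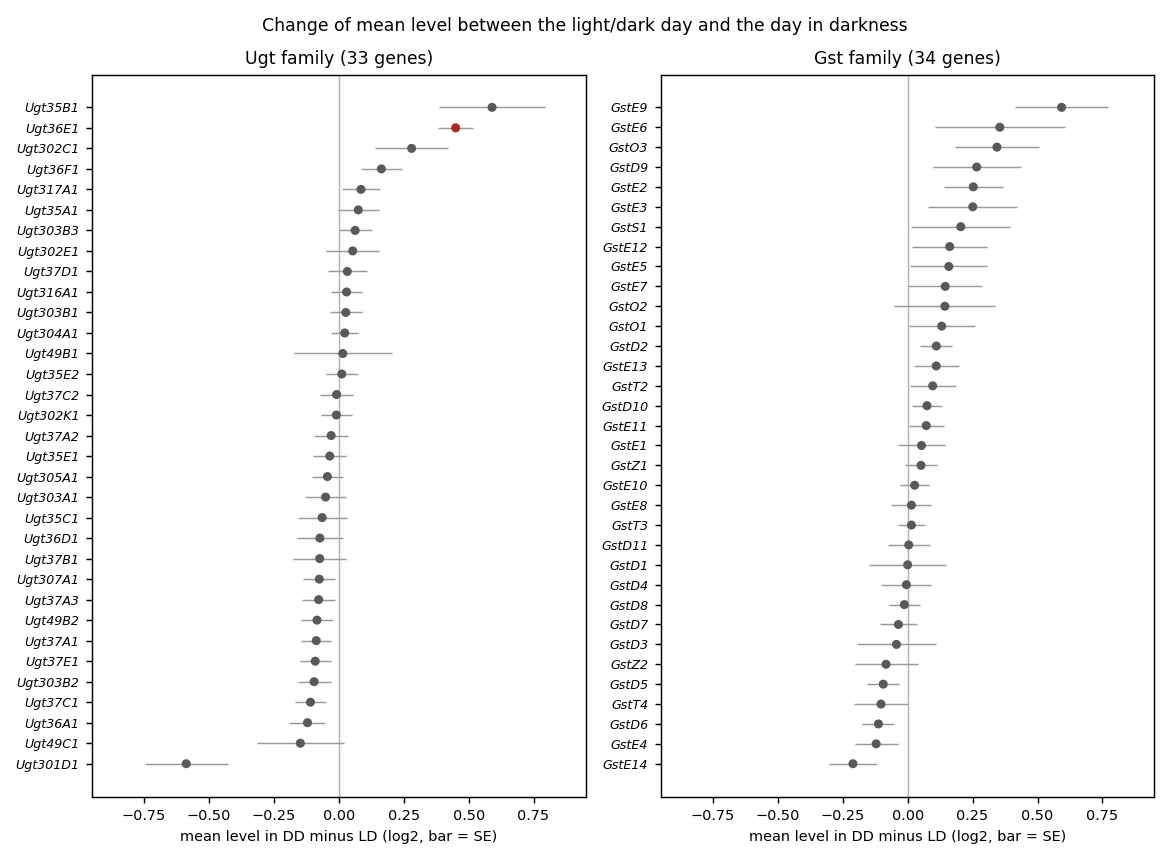
Difference of mean level, DD minus LD (log2), for each Ugt gene (left) and Gst gene (right), with bars of 1 standard error. Ugt36E1, in red, is the gene with an adjusted p under 0.05, and Ugt35B1, GstE9 and Ugt301D1 have differences as large or larger with wider bars.

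Related genes of the same chemistry were described from 7 lists, of which 30 of 36 genes were measured. An adjusted p under 0.05 was found for 1 of the 30 in the rhythm over both days and for 0 in the other comparisons, and unadjusted p-values under 0.05 for 1 over both days, 4 in LD, 9 in DD, 6 for the difference of the curves and 1 for the mean level. The shares over all probe sets were 4.68%, 5.66%, 11.5%, 9.96% and 6.82% in the same order. Gclm, the modifier subunit of the enzyme that limits glutathione synthesis, was the gene called (amplitude 0.38 ± 0.04, peak at hour 11.8, adjusted p = 0.0497), and its peak lay hours after those of most Gst genes. Gclc, the catalytic subunit, had an amplitude of 0.22 ± 0.08 with a peak at hour 20.0 (unadjusted p = 0.0587). The glutaredoxin gene Grx1 was 0.47 ± 0.16 higher in DD (unadjusted p = 0.0130, adjusted p = 0.578), with low values of 5.34 and 5.33 on LD 10 and LD 14 against 5.81 to 6.46 elsewhere.

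The gene cnc, whose product activates many Gst genes, ranged from 5.70 to 6.25 with an amplitude of 0.09 ± 0.05 (unadjusted p = 0.256), and Keap1, its inhibitor, ranged from 3.26 to 3.71 with an amplitude of 0.04 ± 0.07 (unadjusted p = 0.821). Their mean levels differed by 0.11 ± 0.08 and 0.11 ± 0.09 between the days. Of the 6 regulators on the list, 0 passed limma's adjusted test in any of the 5 comparisons, and at an unadjusted p under 0.05 there was 1 in LD and 1 in DD.

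Some markers of other tissues moved on single arrays, and others between the days. The mean of 6 midgut genes was 7.19 on DD 2 against 6.45 to 6.66 on the other 11 arrays, and DD 2 was also the array on which 31 of 34 Gst genes were above their mean. Flight muscle markers averaged 5.93 to 6.74 in LD and 5.66 to 5.91 in DD. Of these, Act88F and Mlc2 differed by -1.17 and -0.73 between the days. The low-signal markers fln and TpnC4 differed by -0.09 and -0.01, and no flight muscle marker passed the test of the level. Fat body markers averaged 11.43 to 11.88 in LD and 11.24 to 11.43 in DD. The storage protein gene Lsp2 was called as lower (difference -1.19, adjusted p = 0.0335). The other fat body markers did not pass, with differences of -0.23 to -0.07 for FASN1, Yp1, Yp2 and Yp3 and 0.10 for apolpp. On LD 6, where 27 of 34 Gst genes were above their mean, the antenna mean was 6.30, its highest of the 12 arrays. The midgut mean was 6.45 there, its lowest. On LD 10 the midgut mean was 6.66 and the antenna mean 5.09. The part of these tissues in the Ugt and Gst values was not tested.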

How the data were processed

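Expression was measured in 12 pools of heads on Affymetrix DrosGenome1 arrays. The authors deposited log2 values made with RMA (background correction, quantile normalization and a summary per probe set), per the submitters' processing notes, which give no version. RMA evens out the arrays, so a shift of the whole RNA pool cannot be seen. Probe sets were named from the platform's gene table, and all 67 symbols matched RefSeq (Release 6 plus ISO1 MT), used here for names, chromosomes and neighbours and not for coordinates.

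From these values, limma 3.58.1 (R 4.3.3) was fitted to all 13966 probe sets that are not controls, with a 24 h cosine and sine and a regime term (8 residual degrees of freedom), and with a separate curve for each day (6 residual degrees of freedom). P-values were adjusted by Benjamini-Hochberg over all probe sets. The fits were tested on simulated data. Nothing says how the pools were raised, so p-values measure the spread between these samples. No low-signal filter was used.

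The members and lists were chosen with earlier results of these data known. Named genes were those with an unadjusted p under 0.05 in any of the 5 comparisons, the 5 largest amplitudes and the 3 largest level differences each way per family, and genes whose probe sets disagreed by over 0.3 in amplitude. Other members given with values were chosen after their values were seen.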

Additional observations from a re-analysis of the deposited data

Results flagged for a closer look

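In 9 of the 134 groups of 6 arrays tested (67 genes in each regime), 1 array lay far from the other 5, by a gap larger than 0.625 of the group's whole range. Chance gives about 1 such group in 20. Among Gst genes, GstE3 measured 7.317 on DD 14, where the rest of DD ranged from 7.965 to 8.153, and its neighbour GstE6 measured 6.89 there against 7.446 to 7.768. GstD3 measured 6.281 on LD 6 against 5.234 to 5.473 on the other LD arrays. GstD7 measured 4.916 on LD 2 against 4.571 to 4.66.

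Among Ugt genes, Ugt36D1 was at 6.641 on DD 14, where the other DD arrays lay between 6.889 and 7.021. Ugt307A1 stood at 3.305 on DD 22 against 3.007 to 3.097. Ugt302K1 had 3.334 on DD 18 against 3.5 to 3.571, and Ugt303A1 had 2.951 on DD 10 against 3.171 to 3.291. Ugt37C1 was at 3.573 on LD 14 against 3.716 to 3.787. DD 14, LD 2, DD 18 and DD 22, which hold 6 of these 9 values, are the arrays of low 5′ signal, and the part of that signal in these values was not tested.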

How the results depend on the processing

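The count of genes called for the rhythm over both days was 0, and 0 to 1 when each array was left out in turn: without LD 10, Ugt35B1 was called (1 gene). The count of genes called for the mean level was 1 (Ugt36E1), and 0 to 1 with each array left out; without LD 2 the gene called was Ugt301D1. It was 0 with brighter probe sets, where 31 members were tested and Ugt36E1 was not among them, 0 without the 4 arrays of low 5′ signal (Ugt36E1 0.63, adjusted p = 0.116) and 0 with hour of day as a block (0.45, adjusted p = 0.154). That block pairs arrays by hour, not by animal, and is the replicate block of this design. Ugt36E1 was called with a second quantile normalization, a trended prior, the 5′ minus 3′ covariate (0.50, adjusted p = 0.0202), averaged probe sets and no curve terms (adjusted p 0.0194 to 0.0291). With its probe sets averaged, Ugt35B1 had an amplitude of 0.47 (adjusted p = 0.0726).

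The DD peak moved by over 6 h without the 4 arrays of low 5′ signal for Ugt36F1 (amplitude 0.49), Ugt36E1 (0.062), GstD4 (0.32) and Ugt37A2 (0.17), and with the covariate for GstD4 (0.13). The peak of the difference of the curves of Ugt35B1 moved by over 6 h with the covariate (amplitude 0.20) and without the 4 arrays (0.37). The cause was not tested, and DD then had 3 arrays. With the covariate, unadjusted counts went from 3 to 7 in each family for the mean level (all probe sets 952 to 814), and from 3 to 7 Gst genes for the rhythm over both days (all probe sets 654 to 421). One array an hour, and low signal of most Ugt genes, limit what these data can show.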
